A study of Mus musculus with 10 samples.

Results

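The 10 genes described here form the core of the insulin-like growth factor 1 (IGF1) axis in the P14 mouse lung. They are the ligand gene Igf1, the receptor genes Igf1r, Igf2r and Ghr, and the binding protein genes Igfbp2, Igfbp3, Igfbp4, Igfbp5, Igfbp6 and Igfbp7. They were chosen by name for their place in the pathway, with earlier results of these data known. Counts of called genes among them are therefore a description and not independent evidence. All 10 are among the 54532 genes of the deposited table. The 5 lungs of the IncPBF group came from WT C57/BL6 mice in which a needle puncture at P7 joined the abdominal aorta to the inferior vena cava, a shunt that increases pulmonary blood flow. The 5 sham lungs came from WT mice that had the same anesthesia and laparotomy at P7 without the puncture, and all lungs were taken at P14. Whole lungs were profiled by bulk RNA-sequencing, in which fewer cells of a type and less RNA per cell cannot be told apart. The labels do not say whether the lungs of a group came from separate litters, so p values measure the spread between these lungs.

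IGF1 is a secreted growth factor made in the liver under the control of growth hormone and also locally in many tissues, where it acts on neighboring cells. It signals through the tyrosine kinase receptor encoded by Igf1r, whereas the product of Igf2r takes up IGF2 for degradation and sorts lysosomal enzymes. Secreted IGF binding proteins (IGFBPs) hold IGFs away from the receptor or deliver them to it, and proteases release the ligand by cutting the IGFBPs. In the developing lung, IGF1 is known as a mesenchymal factor that promotes alveolar growth.

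Expression was deposited as FPKM, a count of sequenced fragments relative to gene length and to a library size. That library size, recovered from the values, was not in a fixed ratio to the fragments on genes. The ratio for IncPBF lungs 1 to 5 was 1.06, 1.05, 1.05, 1.07 and 1.02. Sham lungs 1 to 5 had 0.983, 0.971, 1.03, 1.02 and 0.958, so 3 sham lungs were below 1. The lungs had 16103423 to 20318525 fragments on genes under IncPBF and 18171494 to 19400575 under sham surgery, and for a gene 1 kb long a single fragment equaled 0.0482 to 0.0580 FPKM. The AT2 cell markers summed to 12357 FPKM or more in every lung, and all 9 of them were above the filter. Each gene with a mean FPKM of at least 0.5, 15388 in all, was tested with limma on log2(FPKM + 0.1), and a gene was called when its adjusted p over all tested genes was under 0.05. All 10 IGF1 axis genes passed this filter, by their mean over both groups. Sex-linked RNA divided the lungs almost as the surgery did. Xist, the RNA that coats the inactive X, reached 52.4 to 66.5 FPKM in 4 IncPBF lungs, numbers 2 to 5, and at most 0.0770 FPKM in IncPBF lung 1 and the sham lungs. By contrast, RNA of Ddx3y on the Y chromosome was at 18.6 FPKM in IncPBF lung 1, 21.8 to 24.6 FPKM in the sham lungs and at most 0.00926 FPKM in the others. Sham lung 5 also stood apart in the airway secretory gene Scgb1a1, with 128 FPKM against 4802 to 11743 FPKM in the other lungs. Fits with the Xist level as a covariate or with some of these lungs left out are therefore given for many of the genes. Counts of cell type markers and of glucocorticoid-responsive genes are given for the fit on all 10 lungs only. As Xist RNA was high only in IncPBF lungs 2 to 5, the covariate fit compares the groups mainly through IncPBF lung 1. Its errors are wider, so a lost call there does not by itself mean a smaller change. Sex-linked RNA and surgery can hardly be told apart in these lungs.

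In the IncPBF lungs Igf1 and Igfbp4 were upregulated, and Igfbp3, Igfbp6 and Igfbp7 were downregulated, by the limma test. Igf1r, Igf2r, Ghr, Igfbp2 and Igfbp5 did not pass the threshold. The 2 genes called higher and the 3 called lower compare with 16.1% and 16.2% of all tested genes. Groups did not overlap in 5 of the 10 genes, against 23.2% of all tested genes. The count among the 10 was 4 with an equal total per lung and 4 with quantile normalization. For these scalings the share of all tested genes is not given, so the counts have no background beside them. The median log2 fold change was -0.04 over the 10 genes and 0.01 over all tested genes, and the median absolute log2 fold change was 0.29 and 0.20.

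**Figure D1:**
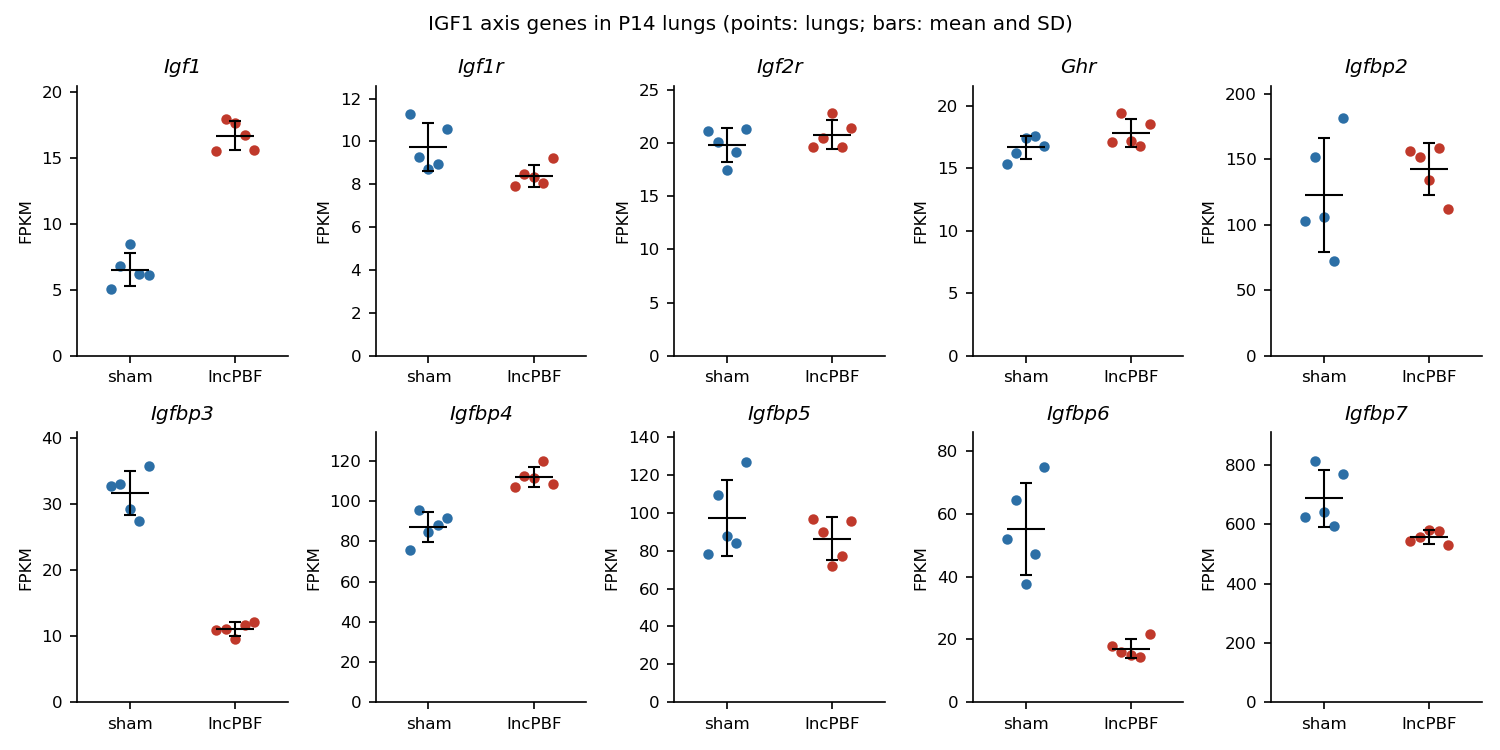
FPKM of the 10 IGF1 axis genes in each P14 lung, with 5 sham lungs in blue and 5 IncPBF lungs in red, and with the mean and SD as bars. The groups are apart in Igf1, Igfbp3, Igfbp4, Igfbp6 and Igfbp7 and overlap in the other 5 genes.

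Igf1 (ENSMUSG00000020053), the ligand, lies on chromosome 10 of GRCm38 from 87858265 to 87937042 on the plus strand. Its level was 15.5, 17.9, 17.6, 16.7 and 15.6 FPKM in IncPBF lungs 1 to 5. In sham lungs 1 to 5 it was 5.06, 6.78, 8.50, 6.19 and 6.09 FPKM. The highest sham lung therefore lay well below the lowest IncPBF lung, and IncPBF lung 1, which has Y-linked RNA like the sham lungs, lay with its own group. The mean was 16.7 ± 1.11 FPKM with IncPBF and 6.53 ± 1.27 FPKM with sham surgery (SD, n = 5 per group), a ratio of 2.55. On the log2 scale the increase was 1.36 (standard error 0.11, 95% interval 1.11 to 1.61, limma adjusted p = 1.96e-05). By p value it ranked 81 of the 15388 genes tested, and its exact permutation p was 0.00794, the smallest that 5 lungs against 5 allow. With the Xist level as a covariate the increase was 1.23 (limma adjusted p = 0.00987). IncPBF lung 1 alone against the 5 sham lungs gave 1.26 (limma adjusted p = 0.0675), a fit in which the single lung is assumed to vary like the sham lungs. An antisense gene, Igf1os, overlaps Igf1, with no more than 5 fragments per lung.

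Among the other ligands and carriers of the axis, RNA in the lung was sparse. Igf2, the fetal growth factor that shares the IGF1 receptor, had 4 to 26 fragments per lung and was too low to be tested. Ins1 had no fragment in any lung, and Ins2 had at most 3. For Igfbp1, an IGFBP of the liver, no lung had more than 1 fragment. Igfals, which encodes the acid-labile subunit that keeps IGF complexes in the circulation, was 0.837 ± 0.185 FPKM with IncPBF and 0.882 ± 0.303 FPKM with sham surgery (SD, n = 5 per group), with overlap of the lungs. Hepatocyte markers were close to 0, with summed levels of 0.310 to 0.557 FPKM with IncPBF and 0.365 to 0.862 FPKM with sham surgery. The defining marker Alb reached no more than 29 fragments per lung, and Serpina1a had 0 throughout.

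Of the receptors, Igf1r, the signaling receptor of IGF1, had 7.90, 8.47, 8.35, 8.06 and 9.24 FPKM in IncPBF lungs 1 to 5. The sham lungs had 11.3, 9.25, 8.71, 8.95 and 10.6 FPKM. Only IncPBF lung 5 reached into the range of the sham lungs. The log2 fold change was -0.21 (95% interval -0.38 to -0.03, limma adjusted p = 0.0657), with an exact permutation p of 0.0317 that was not adjusted over genes. Igf1r passed the limma threshold without IncPBF lung 5 (limma adjusted p = 0.0491) or without sham lung 3 (limma adjusted p = 0.0362), and with limma-voom on the recovered fragments (limma adjusted p = 0.0444). Igf2r ranged from 19.6 to 22.8 FPKM with IncPBF and from 17.4 to 21.3 FPKM without, and its log2 fold change was 0.07 (95% interval -0.08 to 0.22, limma adjusted p = 0.465). Ghr, the growth hormone receptor, ranged from 16.8 to 19.4 FPKM and from 15.4 to 17.6 FPKM, with a log2 fold change of 0.09 (95% interval -0.03 to 0.22, limma adjusted p = 0.235). The receptor genes thus had intervals that excluded a 2-fold change in either direction. With an equal total per lung Ghr passed the threshold (log2 fold change 0.17, limma adjusted p = 0.0488). The noncoding gene Airn runs antisense to Igf2r with 144 to 253 fragments per lung, and the sources used here do not say whether counting used strand. Insr, the insulin receptor, which can pair with the IGF1 receptor, fell by 0.33 on the log2 scale (limma adjusted p = 0.0206), a call lost without IncPBF lung 4 (limma adjusted p = 0.0518) and without IncPBF lung 1 and sham lung 5 together (limma adjusted p = 0.0508). With the Xist level as a covariate the log2 fold change of Insr was -0.19 (limma adjusted p = 0.543), and IncPBF lung 1 alone against the sham lungs gave -0.20.

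The binding protein genes moved in opposite directions. Igfbp3 (ENSMUSG00000020427), which encodes the main IGF carrier of serum, lies on chromosome 11 from 7206086 to 7213923 on the minus strand. IncPBF lungs 1 to 5 had 10.9, 11.1, 9.51, 11.7 and 12.2 FPKM. Sham lungs 1 to 5 had 32.7, 33.0, 29.2, 27.4 and 35.8 FPKM. Every IncPBF lung was thus far below every sham lung, with means of 11.1 ± 1.02 and 31.6 ± 3.31 FPKM (SD, n = 5 per group), a level 2.85 times as high in sham. The log2 fold change was -1.50 (standard error 0.09, 95% interval -1.69 to -1.31, limma adjusted p = 2.43e-06), with rank 9 by p value among all tested genes. Igfbp3 was called in all 23 alternative fits, and in IncPBF lung 1 alone against the sham lungs it was lower by a log2 fold change of -1.52 (limma adjusted p = 0.0140).

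Igfbp6 (ENSMUSG00000023046), whose product prefers IGF2 over IGF1, lies on chromosome 15 from 102144362 to 102149511 on the plus strand. Its level was 18.05, 16.1, 14.9, 14.3 and 21.8 FPKM in IncPBF lungs 1 to 5. In sham lungs 1 to 5 it was 51.8, 64.5, 37.7, 47.3 and 74.9 FPKM. The sham lungs spread widely, yet the lowest of them stood above the highest IncPBF lung. Means were 17.0 ± 3.02 and 55.3 ± 14.6 FPKM (SD, n = 5 per group), 3.24 times as high in sham. Its log2 fold change of -1.67 was the largest in size among the 10 genes (standard error 0.18, 95% interval -2.05 to -1.28, limma adjusted p = 7.34e-05). With the Xist level as a covariate it was -1.51 (limma adjusted p = 0.0254), and IncPBF lung 1 alone against the sham lungs gave -1.57 (limma adjusted p = 0.0845). Without sham lung 5, the highest, and IncPBF lung 1 it was -1.57 (limma adjusted p = 0.000470).

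Igfbp4 (ENSMUSG00000017493), whose product binds IGF1 until the protease PAPP-A cuts it, lies on chromosome 11 from 99041244 to 99054392 on the plus strand. IncPBF lungs 1 to 5 had 107, 113, 112, 119.8 and 109 FPKM, and sham lungs 1 to 5 had 75.8, 95.7, 84.6, 88.3 and 91.7 FPKM. The groups did not overlap, although the gap between them was narrow compared with Igfbp3. Means were 112 ± 4.93 and 87.2 ± 7.58 FPKM (SD, n = 5 per group), a ratio of 1.28, and the log2 fold change was 0.36 (standard error 0.07, 95% interval 0.22 to 0.51, limma adjusted p = 0.00202). The call was lost with the Xist level as a covariate (log2 fold change 0.30, limma adjusted p = 0.178).

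Igfbp7 (ENSMUSG00000036256), an IGFBP-related protein of vessel walls with low affinity for IGFs, lies on chromosome 5 from 77349240 to 77408041 on the minus strand. It was the most abundant of the 10 transcripts, with 543, 556, 582, 576 and 529 FPKM in IncPBF lungs 1 to 5. The sham lungs had 625, 813, 641, 596 and 769 FPKM. Means were 557 ± 22.3 and 689 ± 95.9 FPKM (SD, n = 5 per group). The groups lay apart by a small margin, and the log2 fold change of -0.29 was just past the threshold (95% interval -0.51 to -0.08, limma adjusted p = 0.0363). It lost the call in 14 of 23 alternative fits. These include the fits without any single IncPBF lung (adjusted p from 0.0530 without lung 3 to 0.0771 without lung 5), without sham lung 2 (adjusted p = 0.0720) or without sham lung 5 (adjusted p = 0.0796), all from limma, and the fit with the Xist level as a covariate (log2 fold change -0.32, adjusted p = 0.337). Polr2b, with 1117 to 1577 fragments per lung, and Gm34648, with at most 5, overlap Igfbp7 on the other strand, and the sources used here do not say whether counting used strand.

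Igfbp2 and Igfbp5, neighbors on chromosome 1 with 5457 bases between them, varied more among the lungs than between the groups. Igfbp2 had 157, 152, 134, 159 and 112 FPKM in the IncPBF lungs. Its sham values of 103, 152, 106, 72.5 and 182 FPKM covered that range on both sides. The log2 fold change was 0.28 (95% interval -0.20 to 0.75, limma adjusted p = 0.355). Igfbp5 ran from 71.6 to 96.6 FPKM with IncPBF and from 78.3 to 127 FPKM without, with a log2 fold change of -0.16 (95% interval -0.46 to 0.14, limma adjusted p = 0.409). Single lungs moved these values. Igfbp2 had a log2 fold change of 0.10 without sham lung 4 and 0.44 without sham lung 5, and Igfbp5 had -0.06 without sham lung 5 and -0.09 without IncPBF lung 3, none of them called.

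**Figure D2:**
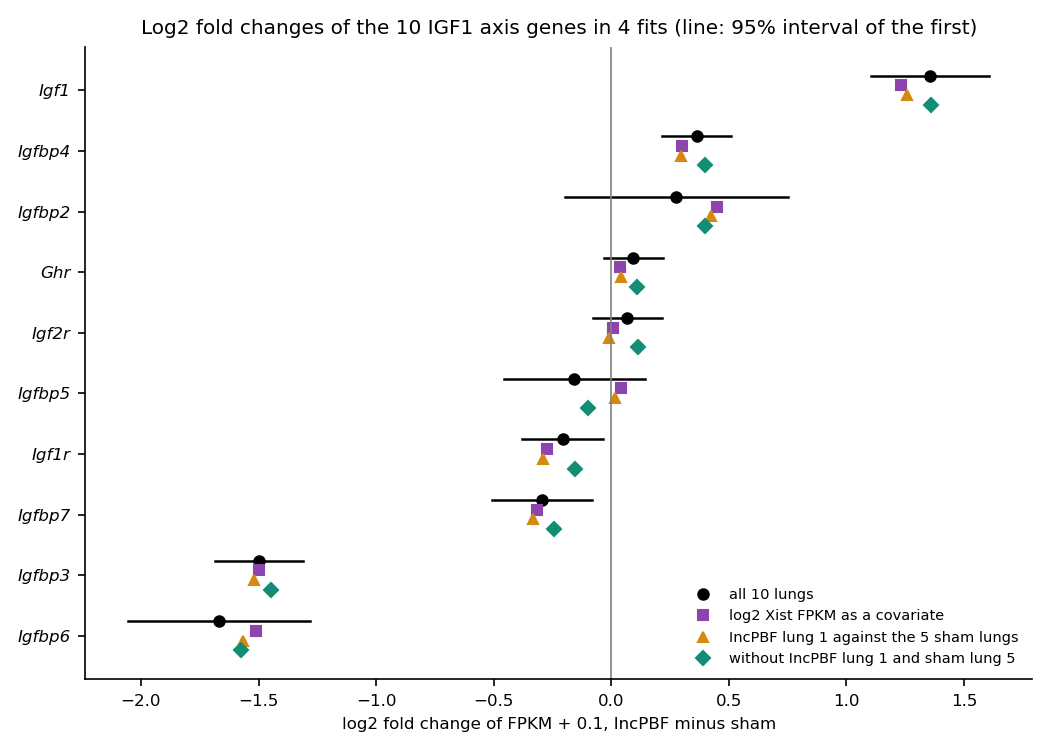
Log2 fold change of FPKM + 0.1, IncPBF minus sham, for the 10 IGF1 axis genes in 4 limma fits, with a line for the 95% interval of the fit on all 10 lungs. Igf1, Igfbp3 and Igfbp6 stay beyond 1.2 in size in all 4 fits, whereas Igf2r and Igfbp5 cross 0.

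The upstream sequences of the 3 IGFBP genes that were called in every fit that left out 1 lung are shown so that their promoters can be read side by side. They are the 250 bases before the RefSeq start on GRCm38.p6, at chr11:7213924-7214173 on the minus strand for Igfbp3, chr15:102143936-102144185 on the plus strand for Igfbp6 and chr11:99040994-99041243 on the plus strand for Igfbp4. Capitals mark TATAAA on either strand. The windows of Igfbp3 and Igfbp4 adjoin the annotated genes. That of Igfbp6 ends at 102144185, short of the annotated gene start at 102144362, so its positions and GC content are those of a region further upstream.
Igfbp3: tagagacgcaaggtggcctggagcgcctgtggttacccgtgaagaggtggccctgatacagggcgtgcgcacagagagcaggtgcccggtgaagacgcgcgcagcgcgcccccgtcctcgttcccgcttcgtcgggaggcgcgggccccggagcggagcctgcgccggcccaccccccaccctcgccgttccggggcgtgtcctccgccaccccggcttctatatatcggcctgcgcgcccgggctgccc
Igfbp6: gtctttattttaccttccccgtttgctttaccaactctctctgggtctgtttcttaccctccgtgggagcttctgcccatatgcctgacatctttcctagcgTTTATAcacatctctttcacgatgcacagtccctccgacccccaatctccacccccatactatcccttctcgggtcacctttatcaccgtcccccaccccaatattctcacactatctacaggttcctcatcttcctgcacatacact
Igfbp4: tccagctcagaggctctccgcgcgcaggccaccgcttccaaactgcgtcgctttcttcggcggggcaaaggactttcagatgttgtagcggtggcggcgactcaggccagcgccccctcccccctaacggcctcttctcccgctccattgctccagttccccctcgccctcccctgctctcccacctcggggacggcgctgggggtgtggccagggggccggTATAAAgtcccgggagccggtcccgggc
Igfbp4 had TATAAA on its own strand, beginning 28 bases before the start. Igfbp6 had it on the opposite strand at 148 bases before the RefSeq start, and Igfbp3 did not have these letters. The Igfbp3 sequence holds tatatat shortly before its start, a stretch that was not searched for and is not marked. GC content was 73.2% for Igfbp3, 69.2% for Igfbp4 and 49.6% for Igfbp6. Of 32851 RefSeq promoter windows of this length, 12.4% held TATAAA on either strand. The letters GGGCGG, a GC box, were found in windows of 5 of the 10 genes, namely Ghr, Igf1r, Igf2r, Igfbp2 and Igfbp7, and in 32.7% of all windows. The STAT5 motif TTCNNNGAA was in none of the 12 windows of the 10 genes and in 7.02% of all windows. Some of these windows overlap exons. That of Igf1, from 87860861 to 87861110, lies inside the gene, and the bases before its annotated start at 87858265 were not searched. The glucocorticoid receptor motif AGAACA was in 1 window, that of Igfbp2, and in 16.1% of all windows. No motif overlaps another in the 3 sequences shown, and a match is a description of letters and not a binding site.

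The order of the transcripts by FPKM, which is a level per length, differed between the groups. In the IncPBF lungs it was Igfbp7, Igfbp2, Igfbp4, Igfbp5, Igf2r, Ghr, Igfbp6, Igf1, Igfbp3 and Igf1r. The ranges over the lungs overlapped between the neighbors Igfbp2 and Igfbp4, Ghr and Igfbp6, and Igfbp6 and Igf1. In the sham lungs the order was Igfbp7, Igfbp2, Igfbp5, Igfbp4, Igfbp6, Igfbp3, Igf2r, Ghr, Igf1r and Igf1, with overlap between Igfbp2 and Igfbp5, Igfbp5 and Igfbp4, and Igf2r and Ghr. Igf1 was thus the lowest of the 10 transcripts in sham lungs and lay above Igfbp3 and Igf1r in IncPBF lungs.

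The makeup of the IGFBP transcripts followed these shifts. Igfbp7 made up a median of 60.2% of the summed FPKM of the 6 IGFBP genes in the IncPBF lungs and 64.7% in the sham lungs, with overlapping ranges. Igfbp4 took 7.17% to 9.65% in the sham lungs and 11.5% to 12.5% in the IncPBF lungs. Igfbp6 took 3.83% to 5.86% in the sham lungs and 1.49% to 2.48% in the IncPBF lungs, and Igfbp3 took 2.60% to 3.38% and 1.03% to 1.39%. The sum of the 6 genes ranged from 879 to 958 FPKM with IncPBF and from 915 to 1279 FPKM without, so the totals overlapped while the shares of Igfbp3, Igfbp4 and Igfbp6 did not. The ratio of Igf1 to Igfbp3 was 1.28 to 1.85 with IncPBF and 0.155 to 0.292 without. As both genes were called in opposite directions, this ratio is a description and was not tested.

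**Figure D3:**
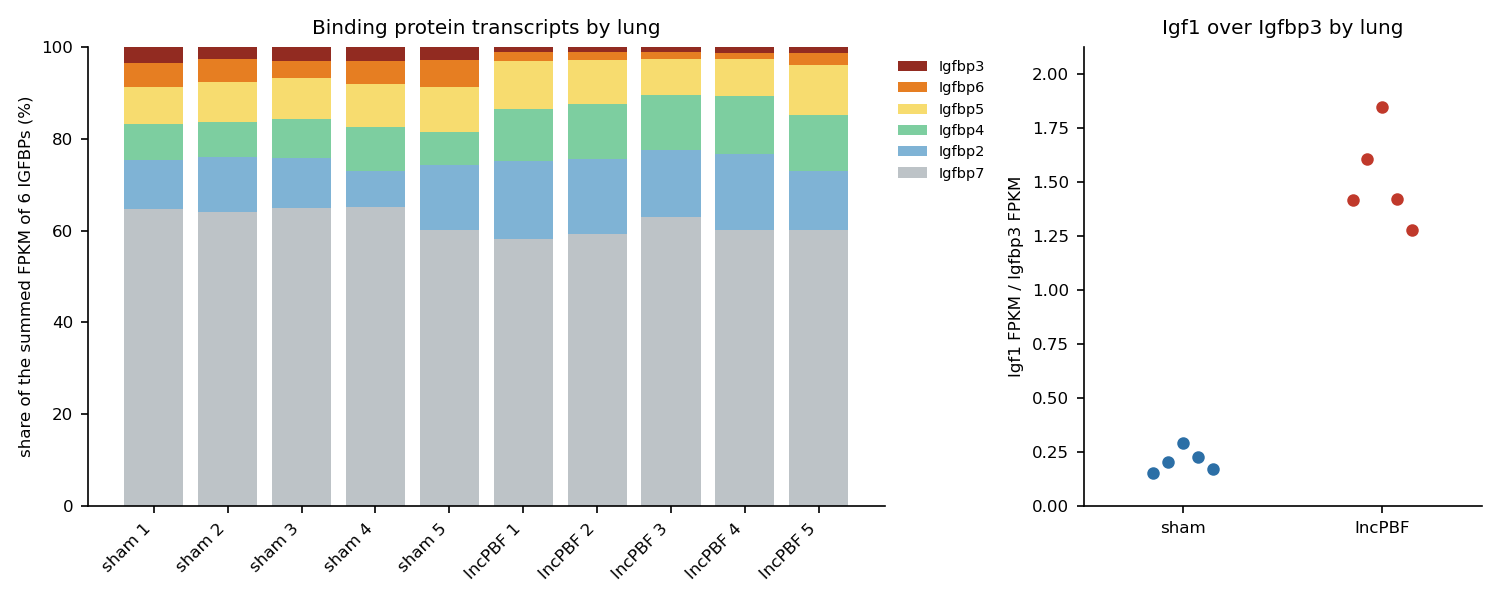
Left, share of each IGFBP gene in the summed FPKM of the 6 IGFBP genes in percent, by lung. Right, ratio of Igf1 FPKM to Igfbp3 FPKM by lung, which lies between 1.28 and 1.85 in the 5 IncPBF lungs and between 0.155 and 0.292 in the 5 sham lungs.

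Among genes whose products cut IGFBPs or block that cleavage, 4 were called higher and 4 lower of the 8 tested, against 16.1% and 16.2% of all tested genes. Pappa encodes PAPP-A, the protease that releases IGF from IGFBP4. It was 0.286, 0.344, 0.211, 0.300 and 0.314 FPKM in IncPBF lungs 1 to 5 and 1.00, 0.708, 0.728, 0.640 and 1.03 FPKM in sham lungs 1 to 5. All IncPBF lungs were below all sham lungs, on 43 to 198 fragments per lung, and the log2 fold change was -1.23 (standard error 0.22, limma adjusted p = 0.00179). Pappa2, which encodes the related protease PAPP-A2 and is named after its values were seen, had a log2 fold change of 1.42 (limma adjusted p = 0.00341), from 2.85 ± 1.51 FPKM under sham to 7.04 ± 0.658 FPKM under IncPBF (SD, n = 5 per group). The stanniocalcin genes Stc1 and Stc2, whose products inhibit these proteases, also split. Stc1 rose by 1.14 on the log2 scale (limma adjusted p = 1.76e-05), from 3.70 ± 0.440 to 8.25 ± 0.757 FPKM (SD, n = 5 per group). Stc2 had a log2 fold change of -0.85 (limma adjusted p = 0.00330). With the Xist level as a covariate Stc1 kept its call (limma adjusted p = 0.00226), whereas Pappa, Pappa2 and Stc2 lost it (limma adjusted p = 0.113, 0.121 and 0.0972) at log2 fold changes of -1.21, 1.53 and -0.98.

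Htra1, a secreted serine protease that can cut IGFBPs, had 78.3, 71.4, 76.7, 76.2 and 67.7 FPKM in IncPBF lungs 1 to 5. The sham lungs had 23.6, 26.6, 30.5, 21.9 and 31.1 FPKM. This is a ratio of means of 2.77 without overlap, and the log2 fold change was 1.48 (standard error 0.10, limma adjusted p = 5.17e-06). The call held with the Xist level as a covariate (limma adjusted p = 0.00195) and in IncPBF lung 1 alone against the sham lungs (limma adjusted p = 0.0264). Its relative Htra3 went the other way, with a log2 fold change of -0.61 (limma adjusted p = 0.000991). The remaining calls in this group were Adam12, higher, and Adam9, lower, with log2 fold changes of 0.66 and -0.29, both named after their values were seen. Adam9 lost the call without any of IncPBF lungs 1, 3 and 4 or sham lungs 1, 2 and 5, where limma adjusted p reached 0.0715. With the Xist level as a covariate Adam12 and Adam9 lost their calls (limma adjusted p = 0.146 and 0.416) at log2 fold changes of 0.62 and -0.25, and Htra3 kept its call (limma adjusted p = 0.0293).

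**Figure D4:**
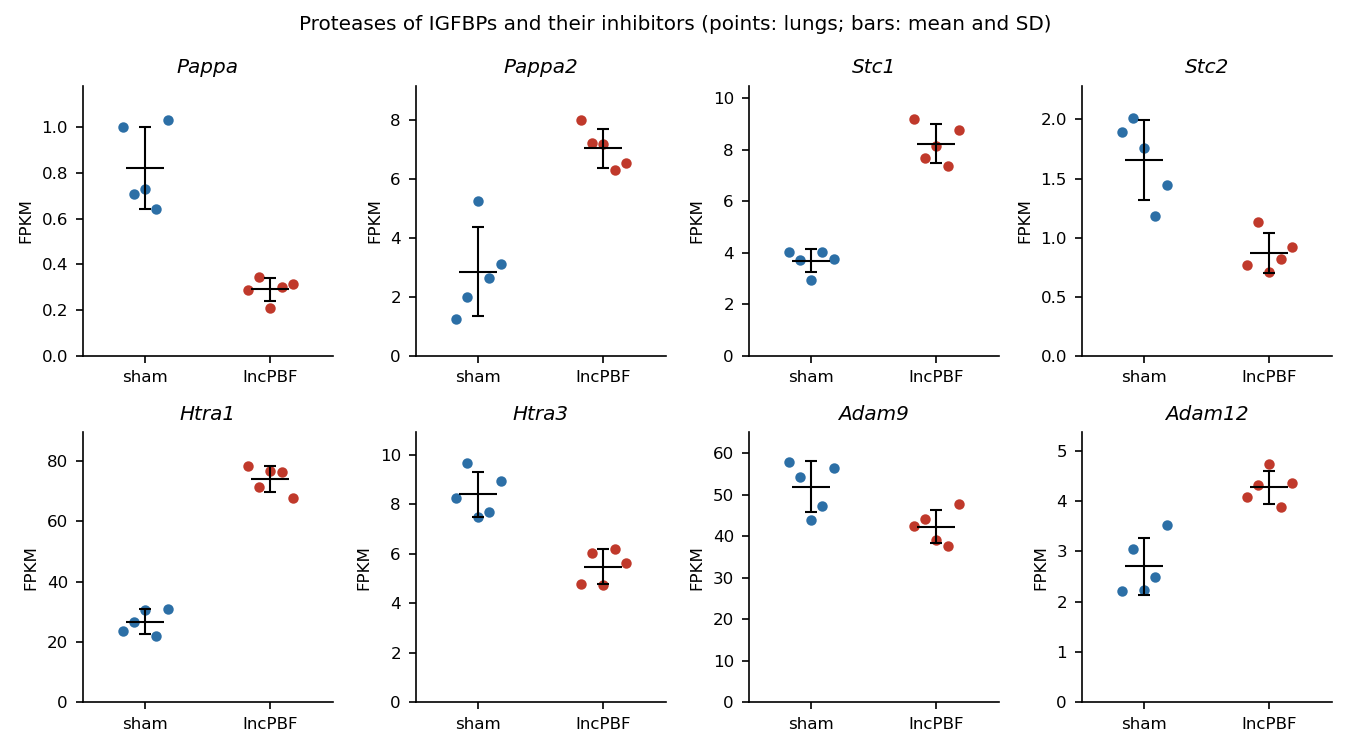
FPKM of 8 genes for IGFBP proteases and their inhibitors in each lung, with the mean and SD as bars. Htra1, Stc1, Pappa2 and Adam12 are higher and Pappa, Stc2 and Htra3 lower in all 5 IncPBF lungs than in any of the 5 sham lungs, while the groups overlap in Adam9.

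In the growth hormone receptor pathway, which drives Igf1 transcription in liver, 2 genes were called higher and 2 lower of 9 tested, against 16.1% and 16.2% of all tested genes. Stat5b, the transcription factor that acts on the Igf1 gene, fell by 0.46 on the log2 scale (limma adjusted p = 0.00219). The kinase gene Jak2 fell by 0.18 (limma adjusted p = 0.0444). The feedback inhibitor genes Socs1 and Socs2 rose by 1.13 and 0.24 on the log2 scale (limma adjusted p = 0.00605 and 0.00618). Cish, another feedback target of STAT5, had 7.35 ± 0.704 and 7.58 ± 0.616 FPKM in the IncPBF and sham groups (SD, n = 5 per group, limma adjusted p = 0.684). The STAT5 feedback genes thus did not all pass the test. Jak2 lost the call in 15 of 23 alternative fits, among them those without IncPBF lung 2, 3, 4 or 5 or sham lung 1, 2, 4 or 5, where limma adjusted p reached 0.0966, and that with the Xist level as a covariate, which gave -0.08. Stat5b, Socs1 and Socs2 lost the call only with the Xist level as a covariate, at log2 fold changes of -0.45, 1.08 and 0.17, and in the fit of IncPBF lung 1 against the sham lungs.

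Downstream of the IGF1 receptor, 3 genes were called higher and 9 lower of 26 tested. Pik3r3 and Grb10, which encode a PI3K regulatory subunit and an adaptor that dampens the receptor, rose by 0.55 and 0.42 on the log2 scale (limma adjusted p = 0.000212 and 0.00126). Pik3r1, another PI3K regulatory subunit gene, fell by 0.68 (limma adjusted p = 0.00189). Irs2, a docking protein of the receptor, fell by 0.57 (limma adjusted p = 0.00271), and Irs1 had a log2 fold change of -0.30 (limma adjusted p = 0.128), which passed without sham lung 4 (limma adjusted p = 0.0460). Irs4 had no fragment in any lung. These 12 calls of either direction among 26 genes compare with 16.1% called higher and 16.2% called lower of all tested genes. Lrp1, an endocytic receptor that also binds IGFBP3, fell by 0.53 (limma adjusted p = 0.00881). With the Xist level as a covariate Lrp1 lost the call (log2 fold change -0.47, limma adjusted p = 0.276), as did Grb10, Pik3r1 and Irs2. Pik3r3 kept its call in that fit. Over the 4 lists of other pathway genes, 9 were called higher and 17 lower of 47 tested out of 57. With the Xist level as a covariate, 4 of them were called in either direction, against 741 of all 15388 tested genes in that fit.

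Markers of cell types were counted beside these genes, against 16.1% called higher and 16.2% called lower of all tested genes. Of 5 tested mesothelial markers all were called lower, with summed levels of 91.8 to 117 FPKM with IncPBF and 132 to 206 FPKM without, although each of Msln, Upk3b and Lrrn4 overlapped between the groups. AT1 markers were called lower in 9 of 10, AT2 markers in 5 of 9 and endothelial markers in 7 of 10, the last with 1 called higher. Smooth muscle and myofibroblast markers were called higher in 5 of 8, with sums of 370.3 to 667 FPKM against 165 to 299 FPKM. Fibroblast markers split, with 2 called higher and 2 lower of 10, among them Pdgfra with a log2 fold change of -1.36. Macrophage markers overlapped in their sums (104 to 421 and 132 to 394 FPKM), with 2 of 9 called lower. Red blood cell markers were called lower in 4 of 6, with a median log2 fold change of -1.50 and overlapping sums of 252.2 to 1929 FPKM with IncPBF and 1463 to 2447 FPKM without. Pericyte markers had 1 called higher and 2 lower of 7, and neither the 5 tested cardiac muscle markers nor the single tested cartilage marker was called. The part that these cell types have in the changes of Igf1, Igfbp3, Igfbp4, Igfbp6 and Igfbp7 was not tested.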

How the data were processed

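Bulk RNA-sequencing covered 5 IncPBF and 5 sham lungs. Per the labels RNA was isolated with Trizol (per the paper's methods, with a column kit), and NEBNext libraries were sequenced on a NovaSeq instrument. The submitters' processing notes name Bowtie 0.12.2 and the builds hg38, GRCm38 and mm10 without their roles. The counter is not given in the sources used here. The authors deposited FPKM with the gene length. Positions equaled those of GENCODE M21 on GRCm38 for 98.3% of shared genes and for all 10 IGF1 axis genes. The IncPBF columns carry another abbreviation than the titles, and were assigned to the group but not to single animals.

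In each lung, FPKM times length was checked for whole multiples of a single step (tolerance 0.02). This held for 100% of the nonzero values with low fragment counts, the only values checked. Genes with higher counts, such as Igfbp7, were not part of that check. The same step gave the recovered fragments of all genes. Precision is limited by these counts, and without molecular identifiers fragments may be copies of 1 molecule. Genes averaging 0.5 FPKM or more were fitted on log2(FPKM + 0.1) with limma 3.58.1 (lmFit, eBayes with a trend) in R 4.3.3, and p values were adjusted by Benjamini-Hochberg over all 15388 genes. The pseudocount understates changes of low genes. Exact permutation tests were two-sided over mean FPKM. limma-voom on the recovered fragments called 5208 genes, against 4970 in the limma fit. The fit was tested on simulated lungs with independent noise per gene, so without effects shared by the genes of a lung. It called 87% of genes changed by 1 on the log2 scale and 63% of those changed by 0.5. Of the unchanged genes it called 0.0405%. Changes of 0.5 or less can thus be missed.

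The genes and lists were chosen with earlier results of these data known. Named are all 10 genes, from each pathway list every called gene or, where more than 4 passed, the 4 with the smallest p, a fixed set of further pathway genes (Igf2, Insr, Pappa, Stc2, Socs2, Cish, Irs1, Irs2), Xist and Ddx3y. Other genes named, such as Scgb1a1, lie outside this rule and were chosen after their values were seen. Promoter sequences are from RefSeq, GRCm38.p6, and windows that overlap transcripts, such as that of Igf1, are not shown but are counted in the motif search. Alternatives were the pseudocount, the filter, the scaling, a replicate block, eBayes without a trend, log2(Xist FPKM + 0.1) as a covariate (called the Xist level), only lungs with Y-linked RNA, limma-voom and each lung left out. Python 3.11.15 with pandas 2.3.3 served for tables, and matplotlib 3.10.9 for figures. Litter and batch are not given in the labels.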

Additional observations from a re-analysis of the deposited data

How the results depend on the processing

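Of 230 fold changes of the 10 IGF1 axis genes under alternatives, 205 kept their direction and side of the threshold, 18 lost the call, 4 gained it and 3 reversed. Leaving out each lung in turn gave log2 fold changes of 1.27 to 1.45 for Igf1, -1.55 to -1.45 for Igfbp3, -1.79 to -1.55 for Igfbp6 and 0.31 to 0.40 for Igfbp4, with all calls kept. With the Xist level as a covariate, 1 of the 10 genes was called higher (Igf1) and 2 lower (Igfbp3 and Igfbp6), 4 other pathway genes and 741 of all tested genes were called, and Igfbp5 reversed to 0.0408. In lungs with Y-linked RNA (IncPBF lung 1 against 5 sham lungs), limma called 0 of the 10 genes higher (1 at an unadjusted p under 0.05), 1 lower (Igfbp3), 2 other pathway genes and 160 of all tested genes, and Igf2r reversed to -0.0103 and Igfbp5 to 0.0167. No other tool was run on those 6 lungs. The cause of these changes was not tested. An equal total per lung called 3559 genes higher and 1782 lower, against 2480 and 2490 as deposited. The deposited library sizes had no fixed ratio to the fragments on genes, and their part in this difference was not tested. With a replicate block, 2 of the 10 genes were called higher and 2 lower, 27 other pathway genes and 4872 of all genes were called, and Igfbp7 lost the call (adjusted p = 0.0697 from limma). It is not known whether lungs of the same number were paired. Correlations of same-numbered lungs ran from -0.07 to 0.09, and 2 of 5 IncPBF lungs correlated best with their own number. These few correlations cannot decide the question. Without IncPBF lung 1 and sham lung 5 together, chosen after the data were seen, 2 of the 10 genes were called higher and 2 lower. Of the 15409 genes tested in that fit, 1771 were called higher and 1704 lower. Of 574 fold changes of 25 other named genes, 517 kept direction and side of the threshold, 54 lost the call, 2 gained it (Irs1, also with the replicate block) and 1 reversed (Cish, to 0.0320 with an equal total per lung). Depth limits Igf2, Igfbp1, Ins1 and Ins2, which were too low to test.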

Other observations

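Genes known to respond to glucocorticoids, hormones that are known to regulate Igf1 and several IGFBP genes, were called lower in 7 of 11 tested and higher in none by limma (1, Sgk1, at an unadjusted p under 0.05), against 16.2% lower and 16.1% higher of all tested genes. The 4 not called were Sgk1, Dusp1, Mt1 and Mt2, with log2 fold changes of 0.33 (limma adjusted p = 0.0516), 0.21, 0.12 and -0.31. The list was chosen with earlier results of these data known, among them the falls of Zbtb16 and Hif3a. Neither the count nor the direction of its genes is therefore independent evidence. Fkbp5, which encodes a chaperone of the glucocorticoid receptor, was 1.497, 1.65, 1.78, 1.49 and 1.93 FPKM in IncPBF lungs 1 to 5 and 12.0, 9.99, 11.9, 7.35 and 14.2 FPKM in sham lungs 1 to 5. The groups were far apart, with a log2 fold change of -2.63 (limma adjusted p = 2.73e-06). Tsc22d3, which encodes an anti-inflammatory mediator of these hormones, had a log2 fold change of -1.63 (limma adjusted p = 2.37e-05), from 147 ± 27.7 FPKM under sham to 47.4 ± 7.41 FPKM under IncPBF (SD, n = 5 per group). Zbtb16 and Hif3a had log2 fold changes of -5.28 and -3.36. The summed levels of the list were 265 to 299 FPKM with IncPBF and 389 to 559 FPKM without. Its relation to the IGF1 axis genes was not tested.

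Across the 10 lungs, after the group mean was removed, the log2 levels most like that of Igf1 were those of Ier5 (Pearson r = 0.953), Gm44509 (r = 0.951) and Gm12918 (r = 0.949). Those most like Igfbp6 were Bace1 (r = 0.980), Zfp324 (r = 0.970) and Slurp1 (r = 0.965). These are the highest of 15388 genes over 10 lungs that share their libraries, and they are given as a description.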
